A study of Mus musculus with 8 samples.

Results

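The 33 interferon-stimulated genes described here were chosen by a fixed list of names, which was chosen with earlier results of these data known. Each was found in 1 of the 54532 rows of the count table. All 33 passed the filter on low counts, among 18971 genes tested. They were measured by poly(A) RNA-seq in dorsal root ganglia, the clusters beside the spinal cord in which sensory neurons sit among glia, vessels and resident immune cells. The ganglia came from levels L3-L5 of C57BL/6 mice with osteoarthritis, which was induced in every animal by injecting monosodium iodoacetate into the joint. The MIA_Acu group (4 libraries) then received manual acupuncture each day at ST36 for 7 days, and the MIA group (4 libraries) had no treatment. Neither ages nor pooling of animals is stated in the labels, and no uninjured or sham-needled mice were analysed here, so acupuncture and the handling that goes with it cannot be told apart.

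Interferons are secreted alarm proteins, of which the type I family (alpha and beta) is made after cells sense foreign or misplaced nucleic acid. They bind receptors on the same or neighbouring cells, activate the kinases JAK1 and TYK2, and bring a complex that holds STAT2 and IRF9 to a short DNA motif, the interferon-stimulated response element, near the genes listed here. Their products block viral replication, tag or unwind nucleic acid, and feed back on the pathway itself. In sensory ganglia, both neurons and non-neuronal cells carry the receptors, and the response is known above all from viral infection.

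The libraries held 32892804 to 40627041 counts. Libraries are named by group and by the number in the column name, and values below are in the order MIA_Acu 1, 2, 3 and 5 and MIA 1, 2, 4 and 5. The sample titles run MIA_Acu 1, 2, 4 and 5 and MIA 1, 2, 3 and 5, so that the columns MIA_Acu 3 and MIA 4 match no title of their group. They were placed by the group in their name, and results are also given for the 6 libraries numbered 1, 2 and 5 and with these 2 columns exchanged. The submitters describe 3 groups with n = 3 and name 2 of them, while 2 groups of 4 libraries were analysed. Defining markers of the ganglion were present in each library: the neurofilament gene Nefm ranged from 3108 to 3421 CPM (counts scaled per library by TMM and to the usual CPM unit) in MIA_Acu and from 3798 to 4744 CPM in MIA, and the satellite glia gene Glul from 383.8 to 488.7 CPM in MIA_Acu and from 391.3 to 409 CPM in MIA. The MIA_Acu 3 library stood apart in tissue content, with 354 CPM of the cartilage collagen gene Col2a1, against 1.74 to 37.4 CPM in the other MIA_Acu libraries and 1.67 to 15.9 CPM in the MIA libraries.

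Stretches of RefSeq promoters (build GRCm38.p6) that hold the core of the response element are given as examples. They come from 5 of the genes with 2 or more matches and from Ifit3b, the near-copy of Ifit3. Gbp3, which also had 2 matches, is not shown, and not every gene had a match. The motif searched was GAAA, 2 bases of any kind and GAAA again, on either strand (TTTC, 2 bases, TTTC), and matches may overlap. Capitals mark the matches. Each line reads from 5′ to 3′ along the strand of the gene, upstream of its start site.
Isg15 (chr4:156200850-156200921, minus strand): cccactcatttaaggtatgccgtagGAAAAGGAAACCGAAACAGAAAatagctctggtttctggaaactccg
Ifit3 (chr19:34583348-34583441, plus strand): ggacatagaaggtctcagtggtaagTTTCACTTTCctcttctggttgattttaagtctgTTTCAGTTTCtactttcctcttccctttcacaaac
Ifit3b (chr19:34607744-34607837, plus strand): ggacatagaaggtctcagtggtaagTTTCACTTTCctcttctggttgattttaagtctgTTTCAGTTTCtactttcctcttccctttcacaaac
Ifit1 (chr19:34640760-34640838, plus strand): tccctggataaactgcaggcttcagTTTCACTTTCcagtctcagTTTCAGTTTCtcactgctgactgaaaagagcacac
Oas1a (chr5:120907526-120907570, minus strand): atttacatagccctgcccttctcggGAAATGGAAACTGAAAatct
Bst2 (chr8:71537562-71537627, minus strand): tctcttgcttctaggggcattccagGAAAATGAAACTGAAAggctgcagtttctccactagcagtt
Isg15 carried 3 overlapping matches in a row and the other genes shown carried 2 each. The stretches of Ifit3 and Ifit3b were the same in all 94 bases.

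The promoter table (300 bases, of which 250 lie before and 50 after the start) held 23 of the 33 genes. Of these 23 genes, 14 (60.9%) had at least 1 match, against 1079 of all 27025 genes in the table (3.99%). Irf7, Irf9, Ifit2, Oasl2, Cmpk2, Dtx3l, Ifi35, Ifi44 and Xaf1 had no match in this window. Dhx58, Ifi27, Mx1, Mx2, Oas2, Parp9, Parp14, Rtp4, Usp18 and Zbp1 were not in the table.

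Transcripts of the interferon-stimulated genes were on average more abundant in MIA_Acu than in MIA ganglia, but the excess lay mainly in 2 of the 4 MIA_Acu libraries. Of the 33 genes, 31 had a positive log2 fold change, with a median of 0.45, while the median of all tested genes was 0.02 and 52.9% of them were positive. No gene passed the threshold (adjusted p under 0.05): edgeR's quasi-likelihood test called 0 of 33, against 0% of all tested genes. At an unadjusted p under 0.05, 6 of the 33 were higher in MIA_Acu (11.2% of all tested genes were) and 0 were lower (10.6% of all tested genes were). DESeq2 gave an adjusted p for 32 of the 33 genes (none for Oas3) and for 14165 of all genes. It called 1 of the 32 higher, Ifit3 (adjusted p = 0.0260), against 5.94% of those genes, and 0 lower, against 6.44%. Limma voom called 0 of 33 and 0% of all genes, and 1 of the 33 was higher at an unadjusted p under 0.05 (11.2% of all genes were). Over all alternatives the adjusted p of Ifit3 ran from 0.0260 (DESeq2) to 0.9999 (exchange of MIA_Acu 3 and MIA 4). In bulk RNA, fewer cells of a type and less RNA per cell cannot be told apart.

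A score was taken as the mean log2 CPM of the 33 genes, centred on the mean of the 8 libraries. It was -0.11, 0.32, 0.93 and -0.49 in MIA_Acu 1, 2, 3 and 5, against -0.14, -0.15, -0.15 and -0.20 in MIA 1, 2, 4 and 5. MIA_Acu 3 and MIA_Acu 2 lay above each MIA library, MIA_Acu 1 lay just above the highest of them, and MIA_Acu 5 was the lowest of the 8. The MIA libraries lay close together, and the score was 0.16 ± 0.61 in MIA_Acu and -0.16 ± 0.029 in MIA (SD, n = 4 each). The difference of 0.32 is smaller than the SD within MIA_Acu. Summed over the 33 genes, the level was 796, 954, 1239 and 616 CPM in MIA_Acu 1, 2, 3 and 5, against 763, 773, 759 and 716 CPM in MIA 1, 2, 4 and 5.

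**Figure D1:**
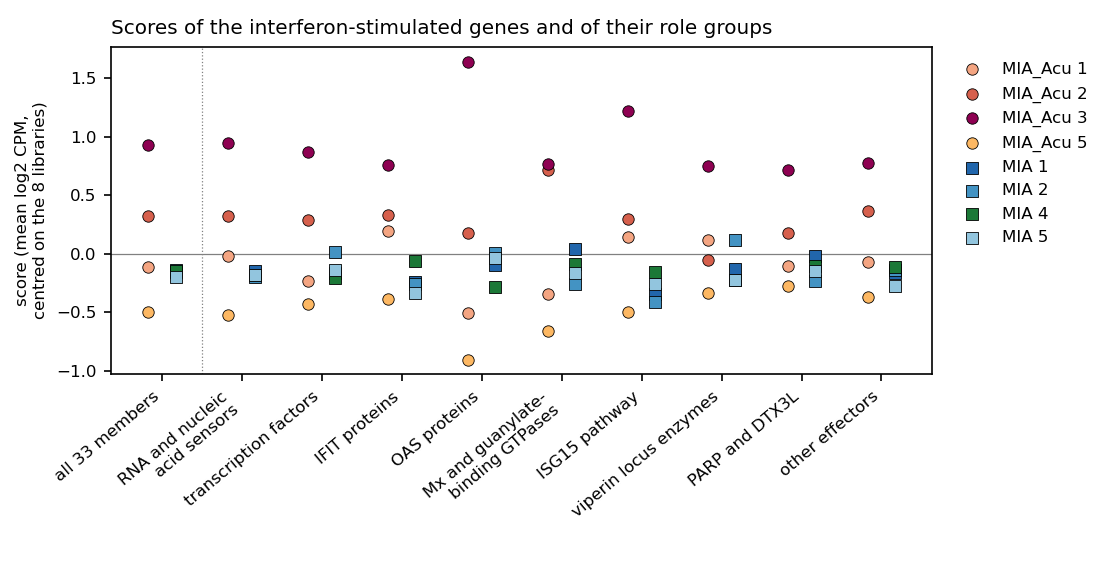
Score (mean log2 CPM, centred on the 8 libraries) of all 33 genes and of each role group, with a circle for each MIA_Acu library and a square for each MIA library. MIA_Acu 3 is the highest point in each group and MIA_Acu 5 the lowest in each, while the 4 MIA libraries lie close together (-0.20 to -0.14 for all 33 genes).

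Counted gene by gene, MIA_Acu 3 was the highest of the 8 libraries for 29 of 33 genes, against 17.4% of all tested genes. MIA_Acu 2 was the highest for 2, the guanylate-binding protein genes Gbp2 and Gbp3 (13.6% of all tested genes), MIA_Acu 1 for 1, Ifit2 (13.3%), and MIA 2 for 1, Ifi27 (19.4%). MIA_Acu 5 was the lowest of the 8 for 20 genes, against 13.4% of all tested genes. Set against the 4 MIA libraries, MIA_Acu 3 lay above each of them for 31 genes (27.3% of all tested genes did), MIA_Acu 2 for 23 (30.9%), MIA_Acu 1 for 11 (27%) and MIA_Acu 5 for 0 (30.3%). MIA_Acu 5 lay below each MIA library for 21 genes (29.3% of all tested genes did). For none of the 33 genes were the groups free of overlap, whereas 4.95% of all tested genes were higher in each MIA_Acu library than in any MIA library and 5.91% were lower.

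Relative to the mean of MIA, the median ratio of the 33 genes was 1.004 in MIA_Acu 1, 1.37 in MIA_Acu 2, 2.14 in MIA_Acu 3 and 0.807 in MIA_Acu 5. At least 2 times the MIA mean was reached by 18 genes in MIA_Acu 3 (6.92% of all tested genes) and by 2 genes in MIA_Acu 2 (2.86%), and by 0 in MIA_Acu 1 (1.52%) and MIA_Acu 5 (4.7%). The coefficient of variation within MIA_Acu was larger than within MIA for 33 of 33 genes, with a median of 43.9% in MIA_Acu and 12.4% in MIA. Over all tested genes these medians were 13.8% in MIA_Acu and 12.3% in MIA, and 59.1% of genes varied more in MIA_Acu.

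**Figure D2:**
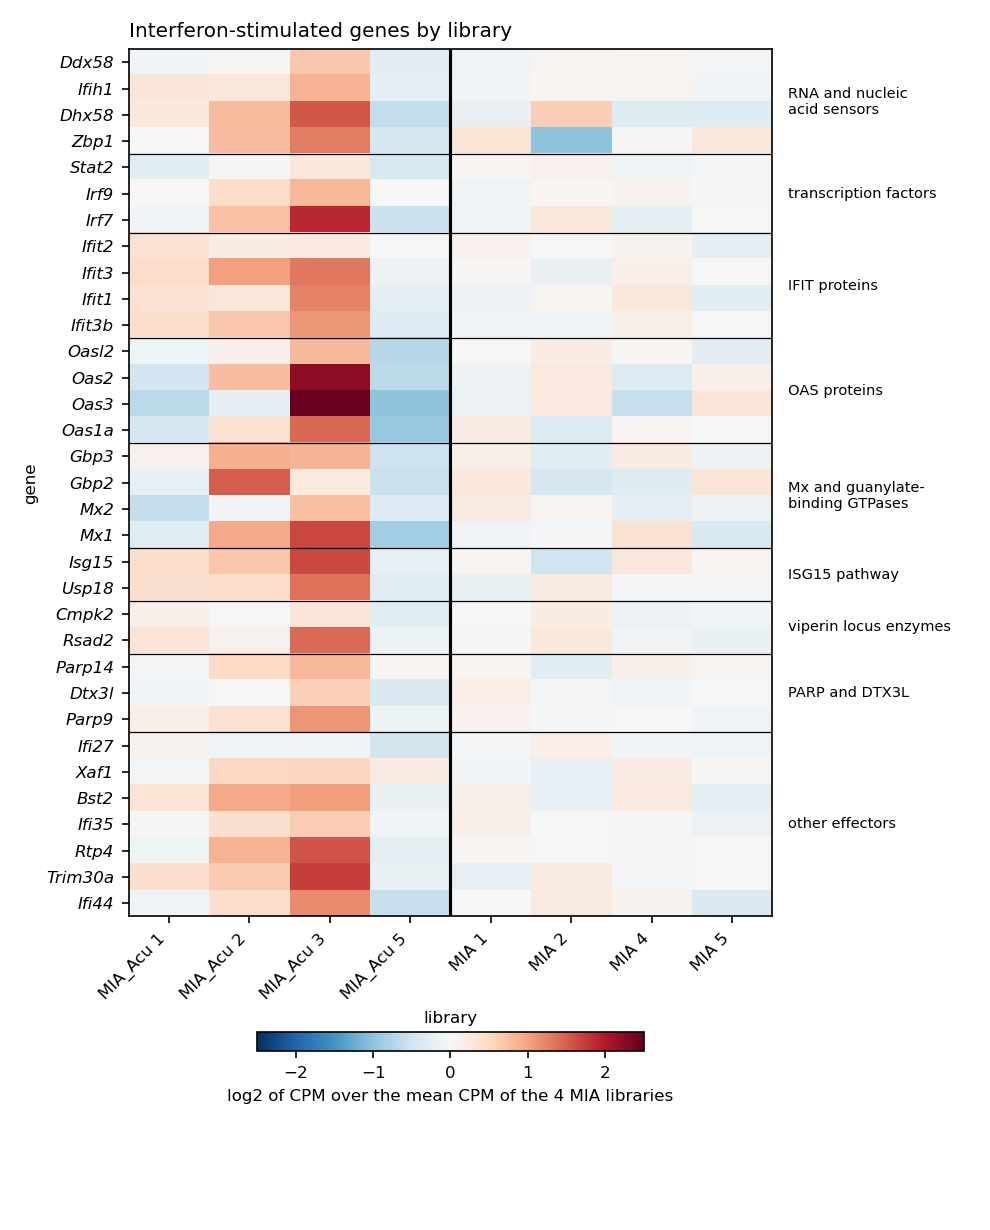
Heat map of log2 CPM of each gene (rows, by role) in each library (columns) relative to the mean of the 4 MIA libraries. MIA_Acu 3 lies above the MIA mean (red) for 32 of 33 genes (48.2% of all tested genes do) and MIA_Acu 2 for 29 (49.8%), while MIA_Acu 5 does for 3 (49.5%) and lies below it (blue) for 30.

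The rest of the account follows the genes by role, with the first 12 genes by unadjusted p and the gene of each role with the highest mean CPM given in every library (CPM does not correct for transcript length). Among the sensors of nucleic acid, each of the 4 genes was highest in MIA_Acu 3, with fold changes between 0.13 and 0.71 on the log2 scale and none past the threshold. Ddx58 (ENSMUSG00000040296), which encodes the RNA sensor RIG-I, was at 32.5, 34.6, 54.1 and 28.2 CPM in the MIA_Acu libraries, against 31.9, 35.7, 35.4 and 33.3 CPM in the MIA libraries. Only MIA_Acu 3 left the range of the other libraries upwards, and the log2 fold change was 0.13 (SE 0.18, edgeR adjusted p = 0.703). Ifih1, the sensor MDA5 for long double-stranded RNA, had a fold change of 0.36 on the log2 scale (SE 0.19) and reached 1.84 times the MIA mean in MIA_Acu 3. Dhx58, which encodes the helicase LGP2 that tunes both sensors, had 0.71 (SE 0.42), and Zbp1, a sensor of Z-form nucleic acid that can start necroptosis, 0.56 (SE 0.40). Both were low genes, with a mean of 4.97 ± 2.98 CPM in MIA_Acu and 3.04 ± 1.09 CPM in MIA for Dhx58 and of 4.61 ± 2.41 CPM in MIA_Acu and 3.13 ± 1.09 CPM in MIA for Zbp1 (SD, n = 4 each).

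Of the transcription factors, Irf9 (ENSMUSG00000002325), the DNA-binding part of the complex with STAT2, was at 28.2, 38.6, 49.8 and 28.2 CPM in the MIA_Acu libraries, against 26.03, 28.9, 29.9 and 27.7 CPM in the MIA libraries. MIA_Acu 3 and MIA_Acu 2 were above all MIA libraries and MIA_Acu 1 and MIA_Acu 5 were among them (log2 fold change 0.36, SE 0.17, edgeR adjusted p = 0.249). Stat2 (ENSMUSG00000040033), its partner, was at 64.5, 79.2, 93.6 and 58.7 CPM in the MIA_Acu libraries, against 80.5, 83.3, 71.6 and 74.6 CPM in the MIA libraries, and its log2 fold change was -0.066 (SE 0.13, edgeR adjusted p = 0.814). It was 1 of the 2 genes with a negative value. Irf7, the factor that amplifies interferon production and is itself induced by it, was picked out after its values were seen: it was at 8.27, 14.5, 32.2 and 5.998 CPM in the MIA_Acu libraries, against 8.22, 10.5, 7.41 and 8.76 CPM in the MIA libraries. MIA_Acu 3 had 3.69 times the MIA mean and MIA_Acu 2 1.67 times, while MIA_Acu 5 was the lowest library (log2 fold change 0.81, SE 0.45, edgeR adjusted p = 0.319).

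The IFIT genes, whose products bind viral RNA that lacks the host's cap marks, held the smallest p-value of the list. Ifit3 (ENSMUSG00000074896) was at 33.98, 50.2, 61.96 and 22.6 CPM in the MIA_Acu libraries, against 25.1, 21.7, 27.04 and 25.01 CPM in the MIA libraries. MIA_Acu 1, 2 and 3 exceeded each MIA library and MIA_Acu 5 lay among them, so that the mean was 42.2 ± 17.4 CPM in MIA_Acu and 24.7 ± 2.203 CPM in MIA (SD, n = 4 each) and the log2 fold change 0.77 (SE 0.26, edgeR adjusted p = 0.146). Ifit3b (ENSMUSG00000062488) was at 12.8, 15.3, 20.2 and 7.504 CPM in the MIA_Acu libraries, against 8.798, 8.97, 10.4 and 9.54 CPM in the MIA libraries, with the same order of the MIA_Acu libraries and MIA_Acu 5 below the MIA libraries (log2 fold change 0.56, SE 0.25, edgeR adjusted p = 0.222). Ifit3 and Ifit3b are near-identical copies, and no source used here states how their reads were split, which leaves the level of each uncertain. Ifit2 (ENSMUSG00000045932) varied least of the 4 between groups, at 73.7, 64.4, 66.9 and 56.1 CPM in the MIA_Acu libraries, against 60.9, 57.03, 59.9 and 47.96 CPM in the MIA libraries, with the highest value in MIA_Acu 1 (log2 fold change 0.21, SE 0.10, edgeR adjusted p = 0.257). Ifit1 had a fold change of 0.52 on the log2 scale (SE 0.27), with 59.2 CPM in MIA_Acu 3 and between 20.8 and 32.2 CPM in the other 7 libraries.

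The OAS genes, whose enzymes sense double-stranded RNA and make the oligoadenylates that switch on RNase L, differed most between single libraries. Their group score was -0.50, 0.18, 1.64 and -0.90 in MIA_Acu 1, 2, 3 and 5, against -0.097, 0.0038, -0.28 and -0.039 in MIA 1, 2, 4 and 5. MIA_Acu 3 was the highest library for all 4 genes, and MIA_Acu 1 and MIA_Acu 5 were the lowest by score, under each MIA library. Oasl2 (ENSMUSG00000029561) was at 48.04, 56.9, 90.9 and 31.6 CPM in the MIA_Acu libraries, against 52.2, 59.2, 52.8 and 43.4 CPM in the MIA libraries, a log2 fold change of 0.13 (SE 0.26, edgeR adjusted p = 0.811). Oas3 was picked out after its values were seen: it was at 1.77, 2.405, 15.6 and 1.397 CPM in the MIA_Acu libraries, against 2.56, 3.34, 1.9 and 3.49 CPM in the MIA libraries. The other 3 MIA_Acu libraries lay below 3 of the 4 MIA libraries. With all 8 libraries the log2 fold change of Oas3 was 0.91 (SE 0.71, edgeR adjusted p = 0.491), and in the 6 libraries without MIA_Acu 3 and MIA 4 it was -0.76 (edgeR adjusted p = 0.1101). Oas2 was at 6.39 ± 6.31 CPM in MIA_Acu and 3.28 ± 0.572 CPM in MIA and Oas1a at 4.21 ± 3.13 CPM in MIA_Acu and 3.203 ± 0.473 CPM in MIA (SD, n = 4 each), with log2 fold changes of 0.96 (SE 0.57) and 0.40 (SE 0.44).

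**Figure D3:**
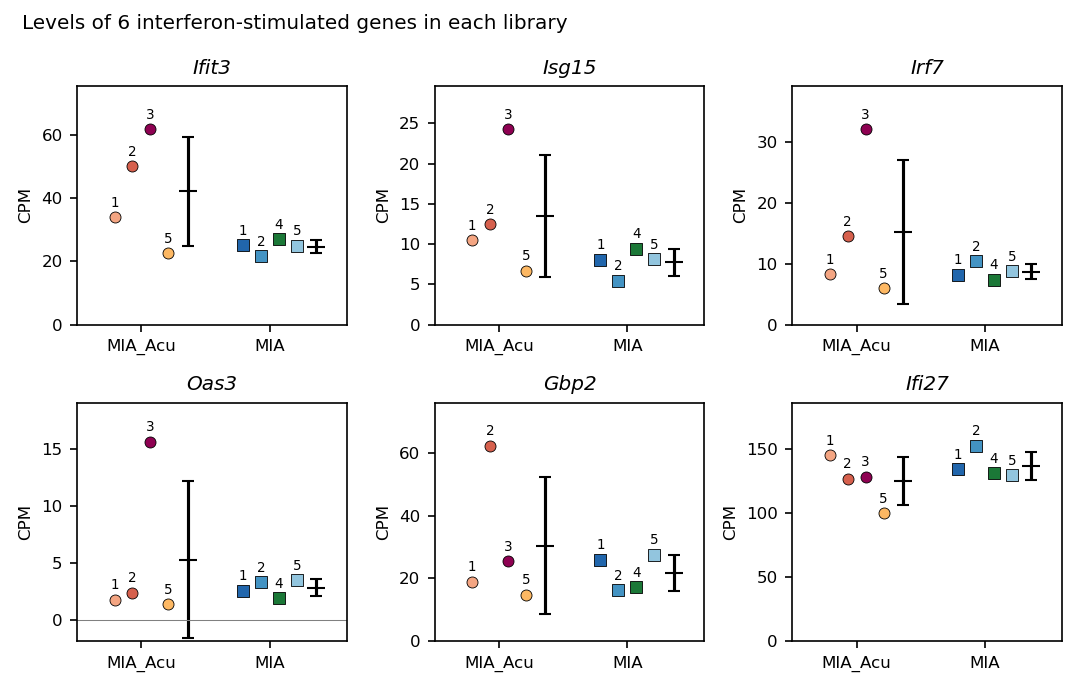
CPM of 6 genes in each library, with circles for MIA_Acu (left) and squares for MIA (right), the library number above each point, and the mean ± SD of each group (n = 4) beside it. For Ifit3, Isg15 and Irf7 the order within MIA_Acu is 3, 2, 1 and 5, for Oas3 only library 3 stands out (15.6 CPM), for Gbp2 library 2 (62.4 CPM), and Ifi27 overlaps between groups.

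Among the GTPase genes, Gbp2 and Gbp3 had another order of libraries. They encode guanylate-binding proteins that assemble on the vacuoles of intracellular microbes and answer to interferon gamma as well as to type I interferon. Gbp3 (ENSMUSG00000028268) was at 28.2, 48.7, 47.1 and 18.2 CPM in the MIA_Acu libraries, against 28.9, 21.8, 30.2 and 23.98 CPM in the MIA libraries. MIA_Acu 2 was slightly above MIA_Acu 3, and MIA_Acu 1 lay within the MIA range (log2 fold change 0.44, SE 0.28, edgeR adjusted p = 0.379). Gbp2, picked out after its values were seen, was at 18.9, 62.4, 25.6 and 14.7 CPM in the MIA_Acu libraries, against 25.9, 16.1, 17.3 and 27.5 CPM in the MIA libraries. MIA_Acu 2 had 2.87 times the MIA mean and MIA_Acu 3 1.18 times, and the log2 fold change of Gbp2 was 0.49 (SE 0.41) in 8 libraries and -0.14 without MIA_Acu 2. These 2 were the only members of the list that were higher in MIA_Acu 2 than in MIA_Acu 3. Mx1, a dynamin-like antiviral GTPase whose allele in C57BL/6 mice is known to be defective, was at 1.46, 3.47, 5.74 and 0.986 CPM in the MIA_Acu libraries, against 1.71, 1.77, 2.35 and 1.38 CPM in the MIA libraries, and Mx2 at 4.199 ± 1.86 CPM in MIA_Acu and 4.12 ± 0.569 CPM in MIA (SD, n = 4 each). Their log2 fold changes were 0.69 (SE 0.49) and 0.030 (SE 0.28).

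Isg15 (ENSMUSG00000035692) encodes a ubiquitin-like protein that is attached to other proteins, and Usp18 (ENSMUSG00000030107) the protease that removes it and also restrains the type I receptor. Isg15 was at 10.5, 12.5, 24.3 and 6.71 CPM in the MIA_Acu libraries, against 8.04, 5.45, 9.42 and 8.09 CPM in the MIA libraries. MIA_Acu 1, 2 and 3 lay above each MIA library and MIA_Acu 5 lay within the MIA range (log2 fold change 0.80, SE 0.35, edgeR adjusted p = 0.218). Usp18 was at 5.88, 6.12, 11.4 and 3.73 CPM in the MIA_Acu libraries, against 3.897, 5.19, 4.33 and 4.35 CPM in the MIA libraries, again with MIA_Acu 1, 2 and 3 above and MIA_Acu 5 below each MIA library (log2 fold change 0.61, SE 0.30, edgeR adjusted p = 0.263).

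Rsad2 and Cmpk2 are neighbouring genes of nucleotide metabolism, the first for viperin, which makes a chain-terminating nucleotide, the second for a mitochondrial kinase. Cmpk2 (ENSMUSG00000020638) was at 41.9, 38.5, 47.5 and 30.97 CPM in the MIA_Acu libraries, against 38.3, 43.6, 34.9 and 36.8 CPM in the MIA libraries, and Rsad2 at 25.4, 21.98, 54.1 and 18.4 CPM in the MIA_Acu libraries, against 19.7, 24.4, 18.97 and 17.98 CPM in the MIA libraries. Rsad2 reached 2.67 times the MIA mean in MIA_Acu 3 and Cmpk2 1.24 times, with log2 fold changes of 0.56 (SE 0.30) and 0.048 (SE 0.13). Parp9 and Dtx3l encode a pair of partners in ADP-ribosylation and ubiquitination, and Parp14 a related ADP-ribosyltransferase. Parp14 (ENSMUSG00000034422) was at 38.5, 55.5, 69.5 and 40.5 CPM in the MIA_Acu libraries, against 40.4, 32.8, 42.95 and 40.4 CPM in the MIA libraries (log2 fold change 0.38, SE 0.18, edgeR adjusted p = 0.2499). Parp9 (ENSMUSG00000022906) was at 14.1, 16.8, 27.5 and 11.6 CPM in the MIA_Acu libraries, against 13.8, 12.6, 12.8 and 11.9 CPM in the MIA libraries (log2 fold change 0.45, SE 0.23, edgeR adjusted p = 0.284). For both, MIA_Acu 3 and MIA_Acu 2 were above each MIA library. Dtx3l had a fold change of 0.085 on the log2 scale (SE 0.18), with only MIA_Acu 3, at 35.1 CPM, outside the range of the MIA libraries upwards.

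Among the other effectors, Bst2 (ENSMUSG00000046718), the tetherin that holds budding virus at the membrane, was at 18.8, 28.7, 30.5 and 13.2 CPM in the MIA_Acu libraries, against 16.1, 12.8, 17.5 and 12.7 CPM in the MIA libraries (log2 fold change 0.63, SE 0.25, edgeR adjusted p = 0.188). Trim30a (ENSMUSG00000030921), a TRIM protein that restrains Toll-like receptor signalling in mice, was at 10.6, 12.5, 26.6 and 7.15 CPM in the MIA_Acu libraries, against 6.91, 9.29, 7.704 and 7.99 CPM in the MIA libraries (log2 fold change 0.83, SE 0.34, edgeR adjusted p = 0.201). In both genes MIA_Acu 1, 2 and 3 exceeded each MIA library and MIA_Acu 5 did not. Xaf1 (ENSMUSG00000040483), an antagonist of the apoptosis inhibitor XIAP, was at 20.2, 29.6, 30.01 and 23.8 CPM in the MIA_Acu libraries, against 19.8, 17.9, 23.96 and 21.2 CPM in the MIA libraries, and it was among the 3 genes in which MIA_Acu 5 was above the MIA mean (log2 fold change 0.32, SE 0.14, edgeR adjusted p = 0.221). Rtp4 (ENSMUSG00000033355), a chaperone that helps opioid receptors to the cell surface, was at 8.45, 16.5, 26.8 and 7.696 CPM in the MIA_Acu libraries, against 9.31, 9.05, 8.87 and 8.98 CPM in the MIA libraries. The MIA libraries lay close together, MIA_Acu 3 had 2.96 times their mean and MIA_Acu 1 and MIA_Acu 5 lay below each of them (log2 fold change 0.72, SE 0.35, edgeR adjusted p = 0.264). Ifi35 and Ifi44 had log2 fold changes of 0.28 (SE 0.16) and 0.39 (SE 0.33).

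Ifi27 (ENSMUSG00000064215), a small membrane protein of mitochondria and the nuclear envelope, was not higher on average in MIA_Acu. It was at 145, 127, 129 and 100.1 CPM in the MIA_Acu libraries, against 134, 153, 131 and 129.5 CPM in the MIA libraries, a log2 fold change of -0.13 (SE 0.11, edgeR adjusted p = 0.523), and it was 1 of 2 genes with a negative value. Per length of transcript it was the most abundant of the 33, at a mean of 337 TPM over the 8 libraries (range 255 to 407). Next in level were Bst2 with 77.9 TPM (54.1 to 124), Ifit3 with 71.7 TPM (48.3 to 130.5), Ifit2 with 58.2 TPM (47.1 to 66.1), Isg15 with 52.5 TPM (28.2 to 118) and Stat2 with 48.2 TPM (37.02 to 58.1), whose ranges overlap each other. The lowest were Oas3 with 2.15 TPM (0.738 to 8.12) and Mx1 with 2.33 TPM (0.973 to 5.58).

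The ratios in MIA_Acu 3 were also sorted by the level of the gene in MIA. That level is the divisor of the ratio, so a low MIA mean by itself favours a high ratio. All tested genes were not split by level, and 6.92% of them reached 2 times the MIA mean in MIA_Acu 3. The values below therefore cannot be read as a trait of these genes. Of the 14 genes with a mean under 10 CPM in MIA, 13 reached at least 2 times the MIA mean in MIA_Acu 3, with a median ratio of 2.96. Of the 19 genes at or above 10 CPM, 5 did, with a median ratio of 1.75. The largest ratios in MIA_Acu 3 were 5.53 for Oas3, 4.74 for Oas2 and 3.69 for Irf7, and the smallest were 0.938 for Ifi27, 1.18 for Gbp2 and 1.19 for Ifit2. The 14 genes with a match to the response element in the promoter window had a median ratio of 2.26 (range 1.18 to 5.53), and the 9 genes with none a median of 1.55 (range 1.19 to 3.69). This is a description of 1 library, with no test.

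How far the difference between the groups rests on single libraries was asked by leaving them out. Without MIA_Acu 3 the median log2 fold change of the 33 genes was 0.14, with 23 of them positive, against 49.6% of all tested genes. Without MIA_Acu 2 it was 0.40, with 30 positive (51.9% of all tested genes). Without both it was -0.12, with 13 positive (48.3% of all tested genes) and 4 lower at an unadjusted p under 0.05 (6.6% of all tested genes). Without MIA_Acu 5 it was 0.66, and 21 of the 33 genes were higher at an unadjusted p under 0.05, against 8.56% of all tested genes. In that run 0 of 33 and 0% of all genes were past the threshold in edgeR. MIA_Acu 5 held the lowest interferon score, so the larger median and count follow from the choice of that library. In the 6 libraries numbered 1, 2 and 5, edgeR called 1963 genes (10.4% of all tested, 6.22% higher and 4.14% lower), of which 0 were among the 33. There the median was 0.15, 23 genes were positive (49.7% of all tested genes), and at an unadjusted p under 0.05 1 gene was higher (14.5% of all tested genes) and 1 lower (13.3%): Ifit3 (log2 fold change 0.56, edgeR adjusted p = 0.179) and Oas3. With the groups of MIA_Acu 3 and MIA 4 exchanged the median was -0.25 and 6 of 33 genes were positive (47.8% of all tested genes), with 3 lower at an unadjusted p under 0.05 (7.08% of all tested genes).

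**Figure D4:**
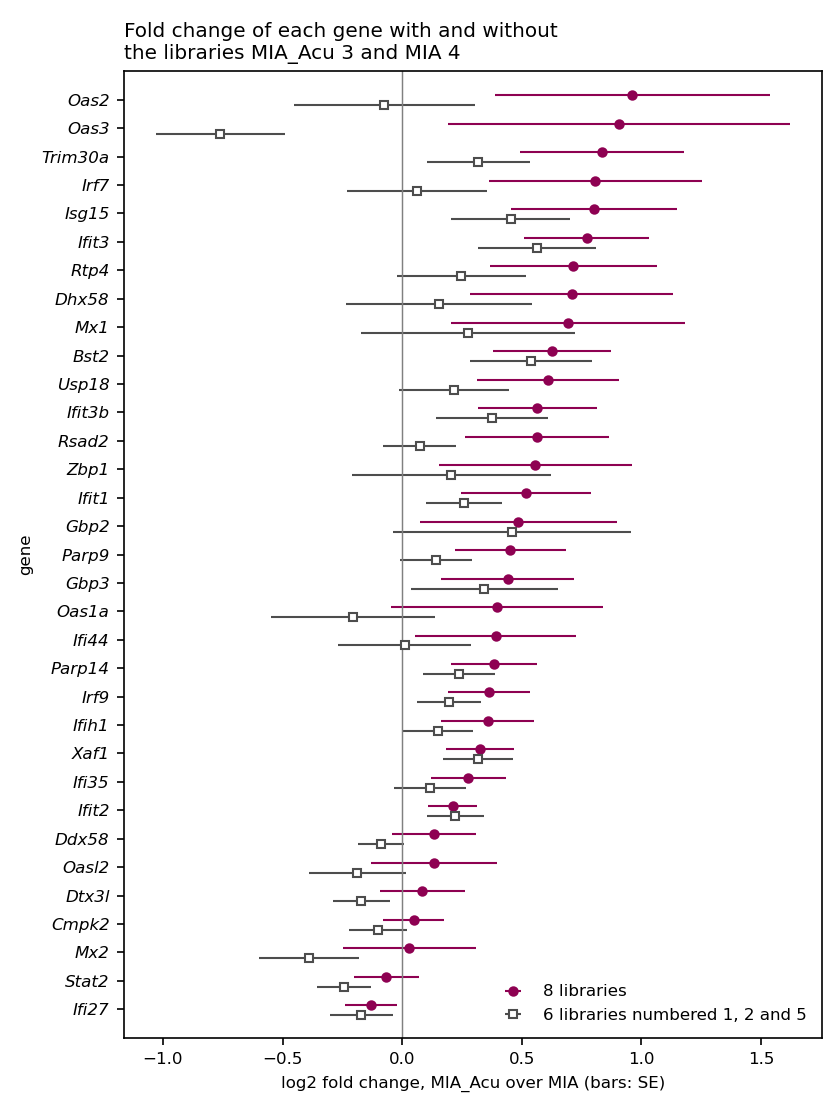
Log2 fold change of each gene, MIA_Acu over MIA, with its SE, from edgeR in all 8 libraries (filled circles) and in the 6 libraries numbered 1, 2 and 5 (open squares). With 8 libraries 31 of 33 genes lie above 0; with 6 libraries 23 do, and Oas3 lies at -0.76.

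Genes upstream of the list were set beside it. For this and the lists that follow, 52.9% of all tested genes were positive in 8 libraries. In the 6 libraries edgeR called 6.22% of all tested genes higher and 4.14% lower. Of 21 interferon genes, 19 had no count in any library. Ifnk, for interferon kappa, had 0, 0, 3 and 3 counts in the MIA_Acu libraries and 0, 0, 2 and 0 in the MIA libraries, and Ifng, for interferon gamma, had 0, 4, 0 and 2 counts in MIA_Acu and 2, 0, 2 and 0 in MIA. Since 0 counts allow up to 3 counts in a library, a difference in the ligands was not detectable at this depth. This limit covers counting error only. All 6 receptor genes were tested, with 5 positive and a median log2 fold change of 0.13, and 0 were called in 8 libraries. In the 6 libraries 1 rose and 1 fell: Il10rb, a chain shared by the receptors of interferon lambda and interleukin 10, had a log2 fold change of 0.32 there (edgeR adjusted p = 0.0384) and Ifnlr1, the other chain of the lambda receptor, of -1.03 (edgeR adjusted p = 0.0413). In 8 libraries their values were 0.25 and -0.65 (adjusted p = 0.146 and 0.252).

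Of 11 genes of JAK-STAT signalling, 8 were positive, with a median of 0.16, and 0 were called. Their score was 0.064, 0.13, 0.13 and -0.041 in MIA_Acu 1, 2, 3 and 5. In MIA 1, 2, 4 and 5 it was -0.039, -0.13, -0.020 and -0.097. MIA_Acu 3 was the highest of the 8 libraries for 1 of the 11 genes, against 17.4% of all tested genes. Jak1, the kinase of all interferon receptors, had a fold change of -0.28 on the log2 scale (SE 0.096, adjusted p = 0.146) in 8 libraries and fell in the 6 libraries (-0.38, adjusted p = 0.0389), while Jak2, the kinase of the gamma receptor, had 0.32 (SE 0.086, adjusted p = 0.109) in 8 and rose in the 6 (0.36, adjusted p = 0.0486). Of 15 adaptors and kinases of nucleic acid sensing, 11 were positive, with a median of 0.27, and 0 were called in 8 or in 6 libraries. Mavs, the mitochondrial adaptor of RIG-I and MDA5, was at 15.6, 13.4, 19.8 and 17.2 CPM in the MIA_Acu libraries, against 10.1, 8.45, 13.4 and 12.03 CPM in the MIA libraries. The lowest MIA_Acu library, MIA_Acu 2, was level with the highest MIA library, MIA 4 (log2 fold change 0.58, SE 0.17, edgeR adjusted p = 0.117). Irf3, the factor that starts transcription of interferon beta, had a fold change of 0.27 on the log2 scale (SE 0.080, adjusted p = 0.125). In neither gene was the order within MIA_Acu that of the interferon score. The score of all 15 genes did have that order, at -0.034, 0.16, 0.41 and -0.13 in MIA_Acu 1, 2, 3 and 5. In MIA 1, 2, 4 and 5 it was -0.0996, -0.23, -0.067 and -0.021. MIA_Acu 3 was the highest of the 8 libraries for 9 of the 15 genes, against 17.4% of all tested genes.

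A second list of interferon-stimulated genes, of which 51 of 53 were tested, showed the same order of the MIA_Acu libraries. It was read in the same libraries and is not separate support. MIA_Acu 3 was the highest of 8 for 43 of the 51 genes, against 17.4% of all tested genes. The score was -0.14, 0.18, 0.89 and -0.43 in MIA_Acu 1, 2, 3 and 5, against -0.078, -0.17, -0.11 and -0.13 in MIA 1, 2, 4 and 5. The median log2 fold change was 0.39, with 42 positive (52.9% of all tested genes were), in 8 libraries, and 0.06 in the 6, and 0 were called in 8. Tor3a had 0.53 (adjusted p = 0.141) in 8 libraries and rose in the 6 (0.61, adjusted p = 0.0228). The RNA helicase gene Znfx1 fell there (-0.32, adjusted p = 0.0291), as did Eif2ak2, for the kinase PKR (-0.35, adjusted p = 0.0437), with 8-library values of -0.22 and -0.065 (adjusted p = 0.1595 and 0.871). Among genes induced above all by interferon gamma, 17 of 19 were tested and 15 were positive (median 0.26), with 0 called in 8 or 6 libraries. Their score was -0.27, 0.64, 0.57 and -0.53 in MIA_Acu 1, 2, 3 and 5, against 0.30, -0.47, -0.20 and -0.053 in MIA 1, 2, 4 and 5, so that MIA_Acu 2 was the highest, followed by MIA_Acu 3 and MIA 1. By the smallest p, the chemokine gene Cxcl11 had a fold change of 0.81 on the log2 scale (SE 0.30, adjusted p = 0.169) and Gbp9 of 0.42 (SE 0.25, adjusted p = 0.361). MHC class I and immunoproteasome genes (17 tested, 12 positive, 0 called) had a median of 0.07, with B2m, the light chain of class I, at 0.28 (SE 0.12, adjusted p = 0.207) and H2-T23 at 0.42 (SE 0.27, adjusted p = 0.382). Their score was -0.18, 0.28, 0.41 and -0.46 in MIA_Acu 1, 2, 3 and 5. In MIA 1, 2, 4 and 5 it was 0.21, 0.016, -0.080 and -0.20. MIA_Acu 3 was the highest of the 8 libraries for 8 of the 17 genes, against 17.4% of all tested genes.

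Markers of tissues that dissection can add, and of immune cells, were read in the same libraries, each list by its score and by its 2 genes with the highest CPM. In MIA_Acu 3 all 10 genes of marrow granulocytes and neutrophils, all 7 genes of the red cell lineage, all 8 genes of skeletal muscle and the 11 tested of 12 bone and cartilage genes had their highest value. That library was the highest for 17.4% of all tested genes. Summed over the list, granulocyte genes were at 399.9, 222, 1132 and 335 CPM in MIA_Acu 1, 2, 3 and 5, against 332, 585, 406 and 657 CPM in MIA 1, 2, 4 and 5, with S100a9 at 125, 67.02, 315 and 100.2 CPM in the MIA_Acu libraries, against 99.5, 167, 126 and 192 CPM in the MIA libraries and Ngp at 123 ± 95.5 CPM in MIA_Acu and 122 ± 40.4 CPM in MIA (SD, n = 4 each). Bone and cartilage genes summed to 33.7, 32.3, 801 and 81.7 CPM in MIA_Acu 1, 2, 3 and 5, against 22.8, 36.8, 26.8 and 63.1 CPM in MIA 1, 2, 4 and 5, mostly from Col2a1 and Ctsk in MIA_Acu 3 (354 and 91 CPM). In MIA_Acu 2, the library with the second highest interferon score, the granulocyte and red cell sums were the lowest of the 8. Red cell genes, led by Hbb-bs and Hba-a1, summed to 439.8, 216, 1030 and 455 CPM in MIA_Acu 1, 2, 3 and 5, against 534, 428, 529 and 695 CPM in MIA 1, 2, 4 and 5. Skeletal muscle genes, led by Myh4 and Acta1, summed to 1970, 359.7, 5239 and 3980 CPM in MIA_Acu 1, 2, 3 and 5, against 3397, 33.5, 2507 and 680.3 CPM in MIA 1, 2, 4 and 5. Of these 4 lists 0 genes were called in 8 or in 6 libraries. The part of these tissues in the interferon score of MIA_Acu 3 was not tested.

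Macrophage markers followed the order of the interferon score within MIA_Acu. All 15 were tested and 15 were positive (52.9% of all tested genes were), with a median log2 fold change of 0.52, and 0 were called in 8 or in 6 libraries. Their score was -0.0019, 0.50, 0.59 and -0.13 in MIA_Acu 1, 2, 3 and 5, against -0.16, -0.54, 0.027 and -0.30 in MIA 1, 2, 4 and 5. Within MIA_Acu the order of libraries was 3, 2, 1 and 5 for both scores. This order was not particular to macrophage markers. It was also that of the sensing adaptors and kinases, the MHC class I genes and the second list of interferon-stimulated genes. In JAK-STAT genes MIA_Acu 3 and MIA_Acu 2 were level at 0.13, followed by MIA_Acu 1 and MIA_Acu 5. Within MIA the macrophage score was lowest in MIA 2 and the interferon score lowest in MIA 5. The MIA interferon scores ran only from -0.20 to -0.14, too close together for their order to be compared. Csf1r, the receptor that maintains macrophages, was at 23.3, 38.8, 37.8 and 22.3 CPM in the MIA_Acu libraries, against 20.97, 16.6, 23.4 and 19.5 CPM in the MIA libraries. Lyz2, which granulocytes express too, was at 139, 114, 266 and 111 CPM in the MIA_Acu libraries, against 109, 129.5, 123 and 169 CPM in the MIA libraries. The part of macrophages in the interferon score was not tested.

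Plasmacytoid dendritic cells are a known source of type I interferon. Their list, of which 6 of 7 genes were tested, shares Bst2 with the 33, and its score was -0.038, 0.033, 0.50 and 0.29 in MIA_Acu 1, 2, 3 and 5, against 0.13, -0.91, 0.21 and -0.21 in MIA 1, 2, 4 and 5. Tcf4, a factor of these cells that glia and neurons express too, was at 57.1, 70.6, 79.4 and 69.5 CPM in the MIA_Acu libraries, against 53.8, 49.6, 59.2 and 52.4 CPM in the MIA libraries. Siglech, their defining marker in mice, named after its values were seen, was at 1.06, 2.68, 1.77 and 1.78 CPM in the MIA_Acu libraries, against 1.71, 1.305, 2.11 and 2.14 CPM in the MIA libraries. B cell and plasma cell genes had scores of -0.045, -0.88, 0.98 and -0.10 in MIA_Acu 1, 2, 3 and 5, against -0.14, 0.50, -0.42 and 0.10 in MIA 1, 2, 4 and 5, with Ighm at 27.3, 25.6, 55.8 and 29.1 CPM in the MIA_Acu libraries, against 27.1, 65.2, 22.9 and 35.1 CPM in the MIA libraries. Genes of T and NK cells, led by Cd4 and Nkg7, summed to 2.91, 3.72, 7.37 and 2.46 CPM in MIA_Acu 1, 2, 3 and 5, against 5.54, 4.91, 5.25 and 3.59 CPM in MIA 1, 2, 4 and 5. In these 3 lists 0 genes were called in 8 or in 6 libraries.

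Endothelial markers (10 of 10 positive, against 52.9% of all tested genes, median 0.53) had scores of 0.27, 0.19, 0.48 and 0.084 in MIA_Acu 1, 2, 3 and 5, against -0.17, -0.43, -0.15 and -0.27 in MIA 1, 2, 4 and 5. MIA_Acu 5, the library with the lowest interferon score, lay above each MIA library, with Flt1 at 60.4 and Pecam1 at 39.2 CPM. Fibroblast scores were 0.24, 0.57, 1.09 and 0.39 in MIA_Acu 1, 2, 3 and 5, against -0.34, -1.71, 0.0061 and -0.25 in MIA 1, 2, 4 and 5, with Col1a2 at 2533 CPM in MIA_Acu 3. Their order within MIA_Acu was 3, 2, 5 and 1. Of the 10 endothelial and 8 fibroblast genes 0 were called in 8 libraries, while 4 and 2 rose in the 6 libraries (6.22% of all tested genes did). The part of these cells in the interferon score was not tested.

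Neuronal, glial and spinal cord content was ordered otherwise. Sensory neuron markers, led by Nefm and Nefl, had scores of -0.031, -0.24, -0.19 and -0.27 in MIA_Acu 1, 2, 3 and 5, against 0.19, 0.36, -0.042 and 0.21 in MIA 1, 2, 4 and 5. Satellite glia scores were 0.070, 0.30, -0.039 and 0.32 in MIA_Acu 1, 2, 3 and 5, against -0.29, -0.34, 0.045 and -0.073 in MIA 1, 2, 4 and 5. Myelinating Schwann cell scores were 0.64, 0.81, -0.12 and 0.88 in MIA_Acu 1, 2, 3 and 5, against -0.54, -1.59, 0.28 and -0.36 in MIA 1, 2, 4 and 5. In each of the glial lists MIA_Acu 2 and MIA_Acu 5 were the highest libraries, while they held the second highest and the lowest interferon score. The same held for genes of spinal cord oligodendrocytes and astrocytes, with 1.59 in MIA_Acu 2 and 1.81 in MIA_Acu 5. None of these genes was called in 8 libraries. In the 6 libraries 9 of 12 sensory neuron genes fell (4.14% of all tested genes did). There 3 of 8 satellite glia, 10 of 10 myelinating Schwann cell and 2 of 8 tested spinal cord genes rose (6.22% of all tested genes did). The part of these shifts in the interferon score was not tested.

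**Figure D5:**
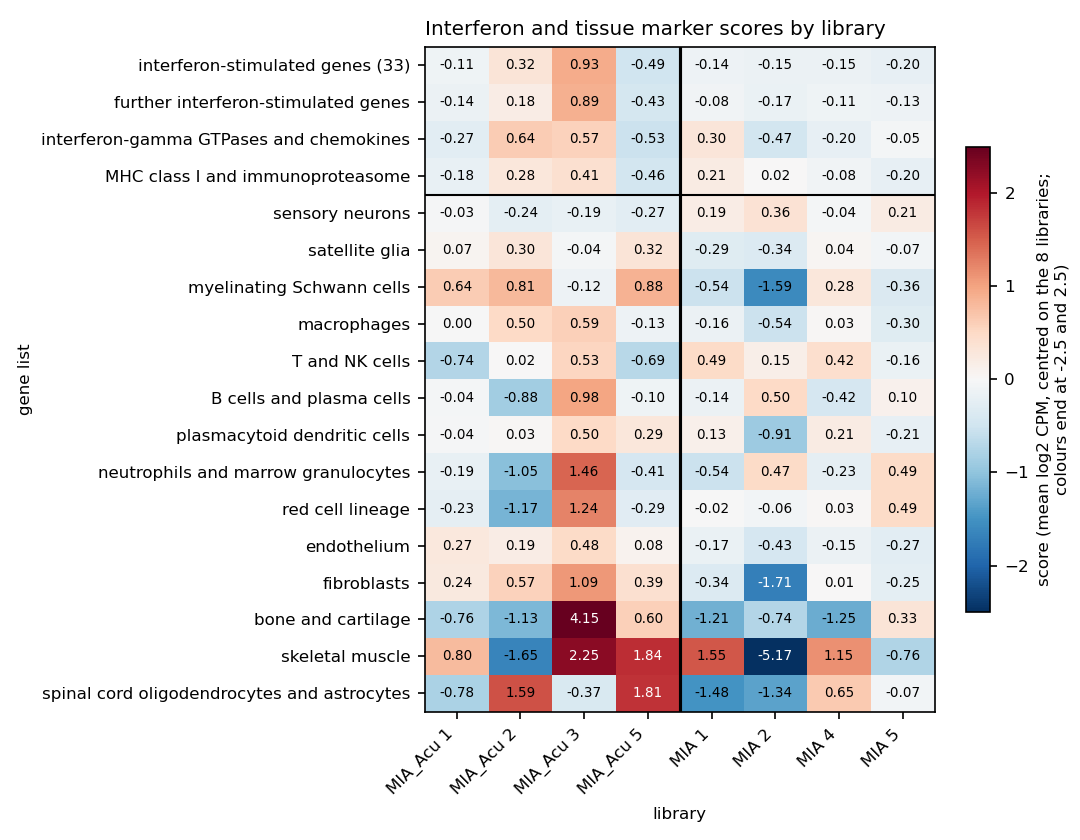
Scores (mean log2 CPM, centred on the 8 libraries) of 4 interferon-related lists (top) and 14 lists of tissue and cell markers, with the 4 MIA_Acu libraries left and the 4 MIA libraries right. MIA_Acu 3 holds the highest interferon (0.93), bone and cartilage (4.15), skeletal muscle (2.25), granulocyte (1.46) and macrophage (0.59) scores, and MIA_Acu 2 the second highest interferon score (0.32) with the lowest granulocyte score (-1.05).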

How the data were processed

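RNA of ganglia was extracted with TRIzol, selected for poly(A) and made into libraries with the NEBNext Ultra RNA kit, per the labels' protocols. FastQC, Trimmomatic and the build GRCm39 (mm39) are named, per the submitters' processing notes. An aligner, a counter, a strand setting and an annotation were not given in the sources used here. Reads of near-copies, overlapping genes and antisense partners may therefore have been divided in an unknown way. The authors deposited raw counts, whole numbers for each Ensembl gene, with symbols beside them.

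Of 8 columns, 6 match a title and 2 were placed by the group in their name. Nothing in the labels ties a library to an animal, and p-values cover the spread among libraries, which may be technical. Library pairs within a group all differed by more than sampling noise (chi-square per degree of freedom from 17.9 to 86.9). Groups were compared with edgeR 4.0.16 in R 4.3.3 (glmQLFit and glmQLFTest) after filterByExpr (minimum count 10, total 15) and TMM scaling. The model held group alone, and p-values were adjusted by Benjamini-Hochberg over all tested genes (threshold 0.05). SE came from the F statistic. The log2 CPM values use a prior count of 2. TPM uses union exon lengths of GENCODE M21 (GRCm38), matched by Ensembl ID for 99.9% of tested genes. The test was first tried on simulated data. Promoters came from RefSeq (GRCm38.p6). Sting1 and Cgas were matched by older symbols.

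Alternatives were DESeq2 1.42.0, limma 3.58.1 voom, other size factors and filters, single libraries left out, the 6 libraries with matching numbers with and without a replicate block, MIA_Acu 2 and 3 left out together, and MIA_Acu 3 exchanged with MIA 4. The genes and lists were chosen with earlier results of these data known. Named in every library were the 12 genes with the smallest p, any gene past the threshold in 8 or 6 libraries, and the gene of each role with the highest mean CPM. Pathway lists name those past the threshold in either fit, or else the 2 with the smallest p, and marker lists the 2 with the highest CPM. Irf7, Oas3, Gbp2, Mx1, Rsad2 and Siglech were given in every library after their values were seen.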

Additional observations from a re-analysis of the deposited data

Results flagged for a closer look

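Within each group of 4 libraries, the gap between the highest or lowest library and its nearest neighbour was set against the whole range, for each of the 33 genes and for the score (68 sets of values). In 2 sets the gap exceeded Dixon's critical value for 4 samples, where chance alone would give about 3.4. Oas3 was at 15.6 CPM in MIA_Acu 3, with a gap of 0.929 of the range to the next MIA_Acu library. Dhx58 was at 4.67 CPM in MIA 2, with a gap of 0.891 of the range to the next MIA library.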

How the results depend on the processing

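Across other size factors, other filters, DESeq2 and limma voom, the median log2 fold change of the 33 genes stayed between 0.35 and 0.46, and each gene kept its direction except Mx2 under voom (-0.040). The median of all tested genes was -0.0077 with upper-quartile scaling, where the score difference was 0.295, and it was 0.018 otherwise except under voom (0.0067), no filter (0.020) and the stricter filter (0.016). The score difference was 0.32 with a prior count of 0.5 and 0.304 without Ifit3 and Ifit3b. The limit to a mean log2 CPM of at least 1 left out none of the 33. DESeq2 called 1 of the 32 genes to which it gave an adjusted p. Over all genes, edgeR called 0 in 8 libraries, 6 with no filter, 1963 in the 6 libraries and 207 with the exchange, and DESeq2 called 1753. The cause was not tested.

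Leaving out single libraries gave 0 to 1340 called genes (1340 without MIA 4), 0 called of the 33, a median of 0.14 to 0.66 and a score difference of 0.059 to 0.54, both lowest without MIA_Acu 3 and highest without MIA_Acu 5. Genes whose sign turned in at least 1 such run had these log2 fold changes over the runs: Stat2 -0.21 to 0.030, Gbp2 -0.14 to 0.71, Ddx58 -0.11 to 0.24, Oas1a -0.23 to 0.66, Oas3 -0.61 to 1.224, Oasl2 -0.20 to 0.33, Mx2 -0.32 to 0.20, Cmpk2 -0.057 to 0.15, Dtx3l -0.14 to 0.21 and Ifi44 -0.023 to 0.61.

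In the 6 libraries, these genes had a negative value where all 8 gave a positive one: Oas3 -0.76, Mx2 -0.39, Oas1a -0.21, Oasl2 -0.19, Dtx3l -0.17, Cmpk2 -0.10, Ddx58 -0.090 and Oas2 -0.074. With the replicate block, 1486 genes were called, 0 of them among the 33, the median was 0.13, and those genes were Oas3 -0.78, Mx2 -0.40, Oas1a -0.29, Oasl2 -0.22, Oas2 -0.21, Dtx3l -0.18, Cmpk2 -0.11, Ddx58 -0.093, Ifi44 -0.027 and Irf7 -0.021. The labels do not say that the numbers pair the libraries, and they were not taken to do so. Deviations of same-numbered libraries correlated at 0.0678, 0.267 and 0.156 for numbers 1, 2 and 5. Libraries with different numbers correlated at -0.245 to 0.14. Each MIA_Acu library correlated best with the MIA library of its own number, while MIA 1 correlated best with MIA_Acu 5 (0.14). These values do not settle whether the numbers mark pairs.

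With MIA_Acu 3 and MIA 4 exchanged, the median was -0.25 and the score difference -0.22, and the genes that turned were Oas3 -1.74, Oas2 -1.04, Irf7 -0.72, Oas1a -0.64, Mx2 -0.56, Dhx58 -0.49, Rsad2 -0.46, Trim30a -0.42, Rtp4 -0.39, Oasl2 -0.38, Ifi44 -0.37, Mx1 -0.36, Dtx3l -0.32, Usp18 -0.31, Zbp1 -0.28, Parp9 -0.25, Ddx58 -0.25, Isg15 -0.23, Cmpk2 -0.19, Ifit1 -0.18, Ifih1 -0.14, Ifi35 -0.10, Irf9 -0.083, Ifit3b -0.047 and Parp14 -0.045. With MIA_Acu 2 and MIA_Acu 3 left out together, the median was -0.12 and the score difference -0.15, and they were Oas3 -0.84, Oas1a -0.67, Oas2 -0.58, Mx1 -0.57, Mx2 -0.46, Oasl2 -0.39, Gbp2 -0.38, Ifi44 -0.32, Irf7 -0.30, Zbp1 -0.22, Dtx3l -0.21, Gbp3 -0.18, Ddx58 -0.17, Rtp4 -0.17, Dhx58 -0.12, Cmpk2 -0.084, Ifi35 -0.022 and Irf9 -0.0020. Both settings move or remove the libraries with the highest interferon scores. Depth limits Oas3, with 51 to 574 counts per library, and Mx1, with 36 to 211.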
